A study of Homo sapiens with 12 samples.

Results

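The BCL2 family sets whether the outer mitochondrial membrane stays closed or is permeabilised during apoptosis. Its guardians (BCL2, BCL2L1, MCL1, BCL2A1) hold the membrane closed, its effectors (BAX, BAK1) form the pores through which cytochrome c leaves, and its BH3-only proteins (BID, BAD, BIK, BBC3) sense damage and either activate the effectors or occupy the guardians. Pancreatic carcinoma cells are known to rely on guardians such as BCL2L1 and MCL1 for survival, and much of the control of the family acts on the proteins (cleavage, phosphorylation, turnover), which an expression array does not see.

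These 10 genes were followed in MiaPaCa-2, an established line from a human pancreatic carcinoma. Cells were exposed to a methanol-soluble leaf extract of Achyranthes aspera (LE) at 34 μg/mL for 24, 48 or 72 h, and control cells were exposed to 2% methanol. Each of 12 arrays carrying 2 dyes set RNA of LE-treated cells against RNA of control cells, and 6, 4 and 2 arrays stand for 24, 48 and 72 h. The treated RNA carried Cy5 on 3, 2 and 1 of these arrays and Cy3 on the others. LE is a crude extract, so the dose counts dissolved leaf matter and not a compound. The methods describe cultures in duplicate, and nothing shows that each array had cells of its own, so the p-values measure the spread between arrays, which may be technical.

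The members were taken as every feature (spot) of the array whose gene symbol in the platform annotation is one of the 10. Whether the annotation numbers features as the deposited table does was not tested, and features annotated to one transcript did not move together. Every gene name below is therefore that of the annotation and may not be the transcript that was read. The members number 48 of the 43376 features, and 43 of the 48 (89.6%) were filled on all 12 arrays. Of all features, 17134 (39.5%) were filled, and the remaining ones were blank throughout. BCL2 had values at 11 of 11 features, BCL2L1 at 10 of 11, MCL1 at 3 of 3, BCL2A1 at 1 of 2, BAX at 12 of 12, BAK1 at 1 of 1, BID at 2 of 3, BAD at 1 of 1 and BBC3 at 2 of 3. BIK, a BH3-only protein found mainly at the endoplasmic reticulum, had its only feature (6129) blank, so 9 of the 10 genes could be read. The other blank features were 9471 of BCL2L1, 34036 of BCL2A1, 32253 of BID and 23612 of BBC3. Single arrays had medians of -0.05 to 0.10 over all features and SDs of 0.478 to 0.985. Of markers chosen for a carcinoma line of epithelial origin with mesenchymal features, KRT8, KRT18, KRT19 and VIM had values while EPCAM and CDH1 were blank. Of 11 markers of blood, vessel, stromal, acinar and islet cells, COL1A1 and CD79A had values and the others had none, AMY2A having no feature under that symbol. The marker values are ratios and give no level, so they do not check the cell type. Among members and markers with 10 or more features, each gene but BCL2L1 was filled or blank throughout. COL1A1 was filled at 10 of 10 features, CDH1 at 0 of 10, and PTPRC, VWF and COL1A2 at 0 of 11 each. Genes with fewer features could be mixed, as KRT18 was (1 of 4). What this means for the numbering was not tested. VWF, blank here, is among the genes that the paper lists as lowered by LE.

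Values are log2 ratios as deposited, read as LE over control. Whether every array had been turned to that direction is not stated in the sources used here. Many results are therefore also given with the sign changed on the 6 arrays whose LE RNA carried Cy3 (turned ratios). A result without a turned value is given as deposited only. Over all features, pairs of arrays with LE in Cy5 correlated at 0.08 to 0.50 (median 0.32, 15 pairs), pairs with LE in Cy3 at -0.02 to 0.44 (median 0.19, 15 pairs), and pairs of opposite orientation at -0.34 to 0.26 (median -0.03, 36 pairs). A feature with the same sign in both orientations keeps its mean as deposited and loses it when turned, and the reverse holds for a feature of opposite signs.

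No member feature and no member gene mean passed FDR ≤ 0.01 at any time point or in their mean (limma, Benjamini-Hochberg over all features or genes). That threshold was passed by 0% of all features at each time point, and in the mean by 0.0525% of features and 0.0793% of genes. At an unadjusted p under 0.05, 2 of 43 member features were counted at 24 h (5.78% of all features), 5 at 48 h (9.29%) and 5 at 72 h (8.99%). These are 4.65%, 11.6% and 11.6% of the members. Turned, the counts at these times were 5 (11.6%), 9 (20.9%) and 1 (2.33%) of 43, where 1587, 2141 and 841 of all 17134 features were counted. In the mean over the time points 10 of 43 (23.3%) were counted, 7 above and 3 below 0, where 15.9% of all features were. With turned ratios 11 of 43 (25.6%) were counted, 5 above and 6 below 0, where 20.5% of all features were. The median member feature was at 0.06, 0.09 and 0.05 at 24, 48 and 72 h, against 0.02, 0.00 and 0.04 over all features. Of the member features, 25, 29 and 23 of 43 lay above 0 at these times, where 53.4%, 50.3% and 54.3% of all features did. RNA came from whole cultures, so fewer cells with a transcript and less of it per cell cannot be told apart.

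At a looser FDR of 0.05, with the time points averaged, BAK1 (feature 2614) and 1 of the 11 features of BCL2 (23895) passed, where 1.24% of all features did, and BAK1 was the only member past it among gene means, where 1.27% of genes did. With turned ratios neither passed, and another BCL2 feature (36281) did, at -0.61 (adjusted p = 0.0494, limma), where 2.56% of all features did. The calls at 0.05 were not stable. Leaving out 1 array ended that of the BAK1 feature for 10 of the 12 arrays (all but replicate 4 of 24 h and replicate 1 of 48 h) and that of the BCL2 feature for 5 (replicate 3 of 24 h, replicates 3 and 4 of 48 h and both of 72 h). With the replicate number as a block (replicate block) the adjusted p was 0.0836 for BAK1 over features, 0.0698 over genes and 0.0581 for the BCL2 feature, so no member passed, and the calls among all features went from 213 to 117. A term for dye kept the calls, at an adjusted p (limma) of 0.0230 for BAK1 over features, 0.0176 over genes and 0.0229 for the BCL2 feature. In that fit 144 of all features passed above 0 and 299 below.

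Among the guardians, BCL2 is the founding member and blocks pore formation at mitochondria and endoplasmic reticulum. Its gene mean over 11 features on the arrays at 24 h ran from -0.06 to 0.45 with a median of 0.05, and on 5 of 6 arrays it lay above 0. At 48 h it ran from 0.10 to 0.20, and the arrays at 72 h gave 0.12 and 0.14. Every array but 1 thus placed the gene mean slightly above 0, at 0.11 ± 0.18 (SD, n = 6), 0.16 ± 0.04 (n = 4) and 0.13 ± 0.02 (n = 2), while the mean over the time points missed the threshold (0.13, adjusted p = 0.539, limma). The turned values were -0.12, 0.04 and 0.01. At 72 h the means of the 11 features ran from -0.51 to 1.53, with 6 above 0. Feature 23895, described below, was the highest of them at 48 and 72 h (1.01 and 1.53). It enters the gene mean, and the gene mean without it was not computed.

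**Figure D1:**
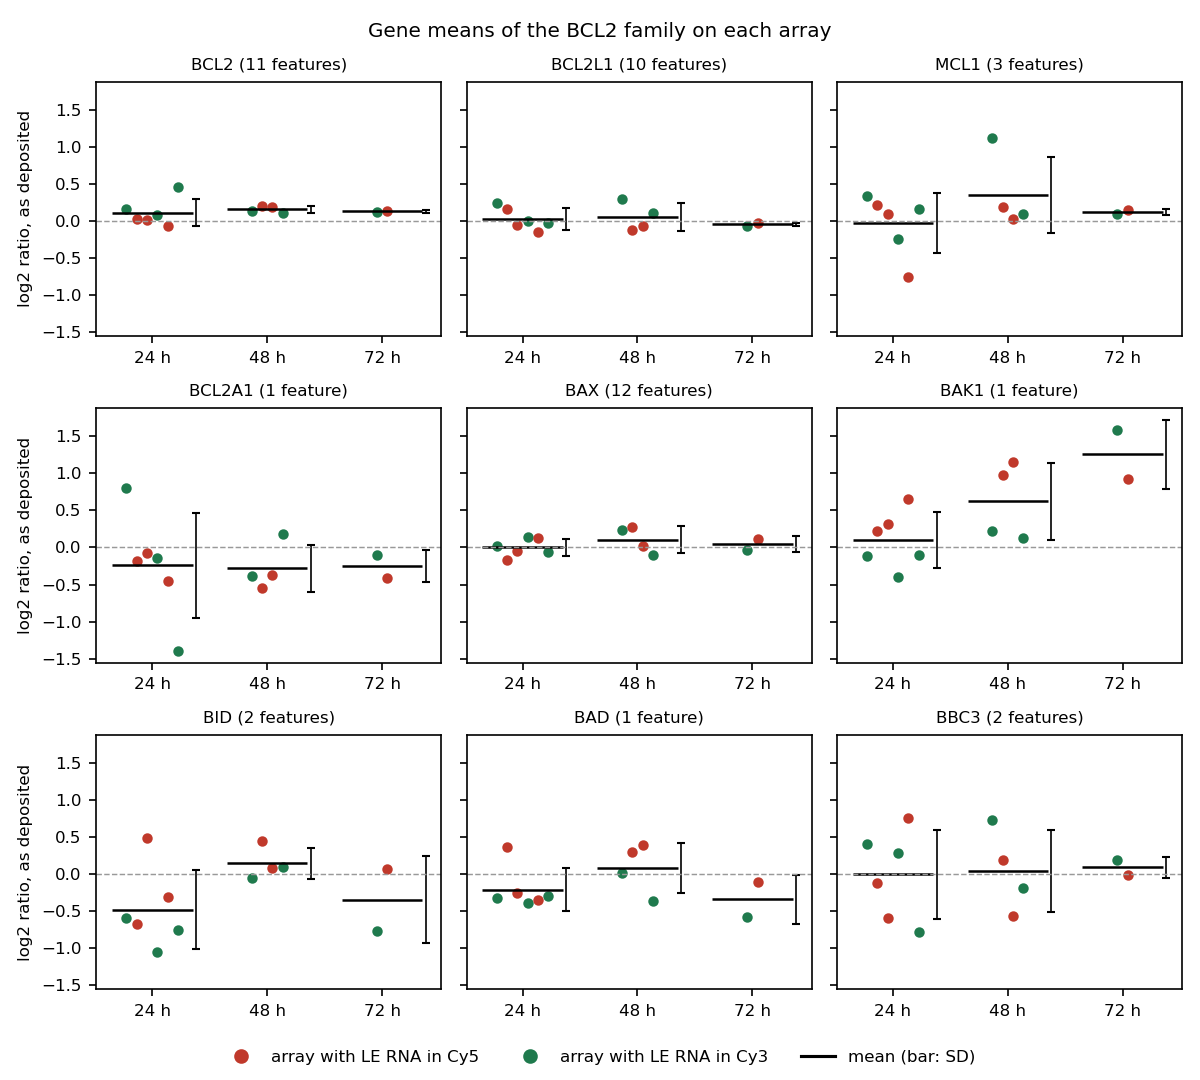
Gene means of the 9 measured members on each of the 12 arrays, with the log2 ratio as deposited on the y axis and time on the x axis. Points are arrays, coloured by the dye of the LE RNA, lines are means and bars are SDs. BAK1 reached 1.26 at 72 h, while BCL2, BCL2L1 and BAX, the genes with 10 or more features, stayed within 0.16 of 0 in every mean.

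Feature 23895 of BCL2 stood apart from the other features of that gene. At 24 h it read 0.46, 0.11, 0.01, -0.78, -0.67 and 1.22 on replicates 1 to 6, at 48 h 1.31, 0.72, 1.24 and 0.78 on replicates 1 to 4, and at 72 h 1.55 and 1.51. The arrays at 24 h lay on both sides of 0, and every later array was at 0.72 or above, with only replicate 6 of 24 h inside the later range. The mean over the time points was 0.87 ± 0.179 (SE, adjusted p = 0.0300, limma), and its adjusted p ranged from 0.0236 to 0.205 with each array left out. Its turned mean was -0.10 (adjusted p = 0.889), since it had the same sign in both dye orientations at 48 and 72 h. The difference between 72 and 24 h was 1.47 ± 0.457 (SE) and missed the threshold (adjusted p = 0.9997). The other features of BCL2 lay between -0.15 and 0.36 averaged over time. Feature 36281, the one past 0.05 with turned ratios, was 0.93, -0.91, -0.36 and 0.83 on replicates 1 to 4 of 48 h, above 0 on both arrays with LE in Cy3 and below 0 on both with LE in Cy5. At 72 h it followed the same split, at 0.25 (Cy3) and -1.27 (Cy5).

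BCL2L1 encodes BCL-xL, the guardian that binds BAX, BAK1 and most BH3-only proteins. The gene mean over 10 features was 0.03 ± 0.15 (SD, n = 6) at 24 h, 0.05 ± 0.19 (n = 4) at 48 h and -0.05 ± 0.02 (n = 2) at 72 h, and 4 of 12 arrays were above 0. The turned values were -0.04, -0.15 and 0.02, also close to 0. Its single features ran from -0.52 (11870) to 0.56 (11273) averaged over time. Feature 11273 read 0.25, -0.17, 0.09, -0.22, 0.38 and 0.65 at 24 h, 0.35, 1.28, 1.01 and 0.76 at 48 h, and 0.46 and 0.87 at 72 h. All 6 later arrays were above 0, and they overlapped with those at 24 h. The adjusted p of its mean was 0.0612, and its turned mean was 0.14. Feature 20949 lay above 0 on 11 of 12 arrays (mean 0.42, adjusted p = 0.123, turned 0.03), and feature 11870 below 0 on 9 of 12 (adjusted p = 0.249, turned 0.26). The widest swing among all member features was that of 11516, which read 2.41 and -2.74 on replicates 1 and 2 of 48 h, arrays of opposite orientation.

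MCL1 is a guardian with a short-lived messenger and protein. Its gene mean over 3 features ran from -0.76 to 0.34 at 24 h with a median of 0.12. At 48 h it was 1.12, 0.19, 0.02 and 0.09 on replicates 1 to 4, and at 72 h 0.09 and 0.15. A single array, replicate 1 of 48 h, carried the highest value, and 10 of 12 arrays were above 0. The mean at 48 h was 0.35 ± 0.51 (SD, n = 4), and that over the time points was 0.15 (adjusted p = 0.663, turned -0.11). On that array 2 of the features read 1.90 (2218) and 1.87 (2235), while the third (5311) read -0.42. Feature 5311 was the only member feature with one sign on all 6 arrays at 24 h, at 0.10 to 0.39, where 2.81% of all features had one sign. Its mean over the time points was 0.26 (adjusted p = 0.311), 0.14 (adjusted p = 0.758) without replicate 1 of 72 h, and its turned mean was -0.09.

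BCL2A1, a guardian known as a target of NF-kappaB in blood cells, was read at 1 feature. It gave 0.80, -0.18, -0.08, -0.14, -0.45 and -1.40 at 24 h, -0.38, -0.55, -0.37 and 0.18 at 48 h, and -0.10 and -0.41 at 72 h. It was below 0 on 10 of 12 arrays and on all 6 with LE in Cy5, while the highest and the lowest value both came from arrays at 24 h with LE in Cy3. The means of -0.24, -0.28 and -0.26 were nearly equal over time, and that over the time points had an adjusted p of 0.493 over genes (limma, turned -0.11).

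Of the effectors, BAX moves from cytosol to mitochondria on activation, and BAK1 sits in the outer membrane from the start. The gene mean of BAX over 12 features was 0.00 ± 0.12 (SD, n = 6), 0.11 ± 0.18 (n = 4) and 0.05 ± 0.11 (n = 2) at 24, 48 and 72 h, and 7 of 12 arrays were above 0. No time point differed from 0 beyond its SD, and the turned values were -0.03, 0.04 and 0.08. Single features were spread more widely, from -0.82 (19279) to 0.45 (39268) averaged over time.

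Feature 19279 of BAX, the only one annotated to a transcript other than that of the remaining 11, lay below 0 on 10 of 12 arrays. It read 0.11, 0.08, -0.34, -0.33, -0.50 and -2.72 at 24 h, -0.22, -0.50, -1.56 and -1.12 at 48 h, and -1.11 and -0.85 at 72 h. All 6 later arrays were below 0, inside the range of those at 24 h. The mean over the time points was -0.82 ± 0.238 (SE, adjusted p = 0.101), and 0.10 when turned. Feature 39268 of BAX read 2.43, 1.53, 1.86 and 0.59 at 48 h, -0.27 and -0.41 at 72 h, and -0.35 to 0.64 at 24 h. The values at 48 h stood above those at 72 h without overlap and touched those at 24 h only at replicate 4. The mean at 48 h was 1.60 ± 0.268 (SE), the highest of any member feature at a single time point, with an adjusted p of 0.167. Its difference from 24 h was 1.53 (adjusted p = 0.980) and that of 72 h from 48 h was -1.94 (adjusted p = 0.999). Feature 42456 of BAX was above 0 on 10 of 12 arrays (mean 0.44, adjusted p = 0.312, turned 0.15).

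BAK1 was read at 1 feature, so no second feature of the gene could be set beside it. On replicates 1 to 6 of 24 h it was -0.11, 0.22, 0.32, -0.40, 0.65 and -0.10, on replicates 1 to 4 of 48 h 0.23, 0.98, 1.16 and 0.13, and on those of 72 h 1.59 and 0.93. Both arrays at 72 h lay above every array at 24 h, and those at 48 h overlapped with both. The means were 0.10 ± 0.38 (SD, n = 6), 0.62 ± 0.52 (n = 4) and 1.26 ± 0.47 (n = 2), a ratio of 1.07, 1.54 and 2.39-fold. The mean over the time points was 0.66 ± 0.153 (SE) with an adjusted p of 0.0486 over features and 0.0402 over genes (limma), and of 0.0343 to 0.296 over features with each array left out. At single time points the adjusted p over features was 0.447 at 48 h and 0.222 at 72 h, and the difference of 72 h from 24 h was 1.16 (adjusted p = 0.9997).

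The values of BAK1 split by dye. All 6 arrays with LE in Cy5 were above 0, and 3 of 6 with LE in Cy3 were. The mean was 0.40 on the Cy5 arrays and -0.20 on the Cy3 arrays at 24 h, 1.07 and 0.18 at 48 h, and 0.93 and 1.59 at 72 h. Turned, the time points read 0.30, 0.44 and -0.33, and their mean was 0.14 (adjusted p = 0.761 over genes), so the sign at 72 h and the pass at 0.05 both went when the ratios were turned.

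**Figure D2:**
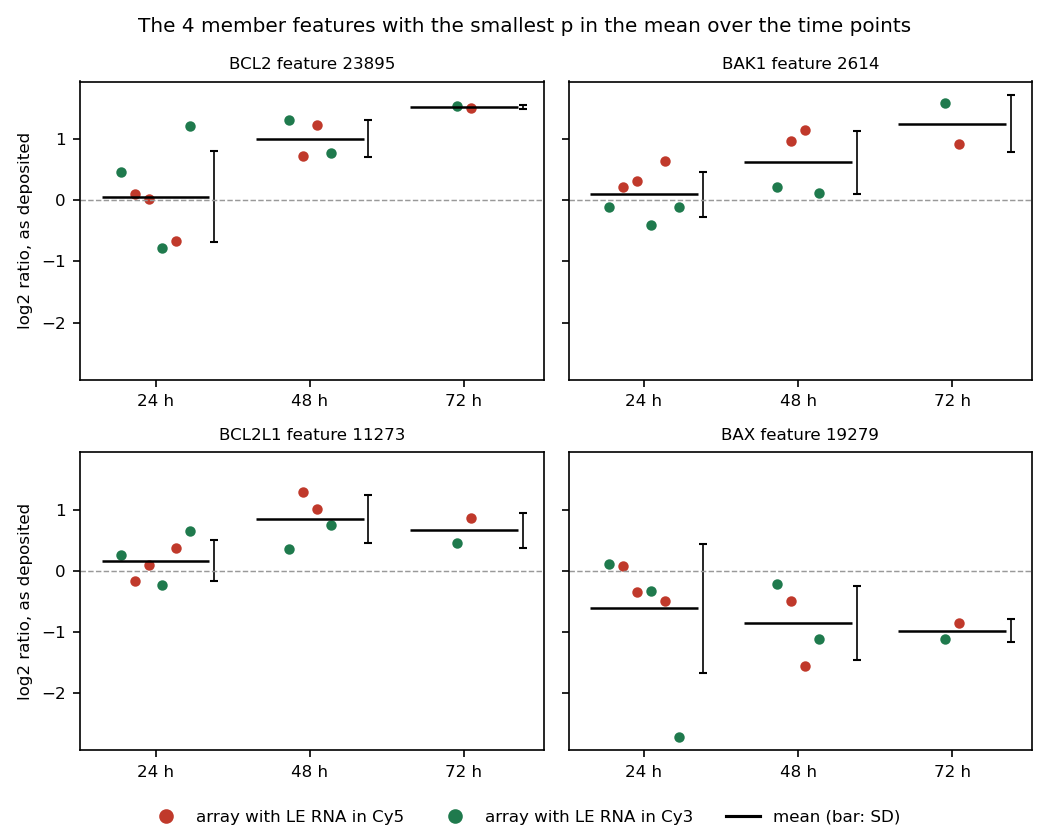
Log2 ratio as deposited (y axis) of the 4 member features with the smallest p in the mean over the time points, by time (x axis), chosen after their values were seen. Points are arrays coloured by the dye of the LE RNA, lines are means and bars are SDs. The BCL2 feature reached 1.55 and 1.51 at 72 h, and replicate 6 of 24 h gave -2.72 at the BAX feature.

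Among the BH3-only genes, BID is cleaved by an initiator caspase and links death receptors to mitochondria. Its gene mean over 2 features was -0.48 ± 0.53 (SD, n = 6) at 24 h, 0.14 ± 0.21 (n = 4) at 48 h and -0.34 ± 0.59 (n = 2) at 72 h, with 5 of 12 arrays above 0. The arrays at 24 h ran from -1.05 to 0.49 and overlapped with those of both later times, and the adjusted p at 24 h was 0.712. Turned, the means were 0.32, 0.12 and 0.42. By dye, the gene mean was above 0 on 4 of 6 arrays with LE in Cy5 and on 1 of 6 with LE in Cy3. The features differed in sign, with 21514 at -0.57 (adjusted p = 0.144) and 21043 at 0.12 averaged over time. Feature 21514 read -0.30, -1.67, 0.56, -1.02, -0.66 and -1.01 at 24 h, 0.27, -0.04, 0.17 and -0.31 at 48 h, and -1.60 and -0.52 at 72 h.

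BAD is held in the cytosol by 14-3-3 proteins while survival kinases are active. Its only feature read -0.32, 0.37, -0.25, -0.40, -0.35 and -0.30 at 24 h, 0.02, 0.29, 0.40 and -0.36 at 48 h, and -0.57 and -0.11 at 72 h. At 24 h 5 of 6 arrays lay close together below 0 and replicate 2 above it, and at 48 h 3 of 4 were above 0. The mean over the time points was -0.15 (adjusted p = 0.570 over genes), and 0.21 when turned (adjusted p = 0.344).

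BBC3 encodes PUMA, a BH3-only protein induced by p53. Its gene mean over 2 features was -0.01 ± 0.60 (SD, n = 6), 0.04 ± 0.55 (n = 4) and 0.09 ± 0.14 (n = 2), with 6 of 12 arrays above 0. Feature 8339 spanned -1.18 to 1.37 at 24 h alone, and feature 38136 spanned -0.76 to 0.24. The spread between arrays exceeded each mean, and the turned means were 0.02, -0.23 and -0.10.

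Features annotated to one gene did not share their log ratios across arrays. The median correlation between features of BCL2 was -0.02 (55 pairs), of BCL2L1 -0.10 (45 pairs), of BAX -0.05 (66 pairs) and of MCL1 -0.36 (3 pairs), and the pairs of BID and BBC3 gave 0.17 and 0.39. These are descriptions over 12 arrays that share dyes and RNA. The features under a single annotated transcript gave the same picture, with medians of -0.02 for 10 features of BCL2, -0.10 for 10 of BCL2L1 and -0.03 for 11 of BAX. Over 168 transcripts of the array with at least 8 measured features, the median of such medians was -0.00 (range -0.15 to 0.24). In the mean over the time points, 9 of 11 BCL2 features, 6 of 10 of BCL2L1 and 9 of 12 of BAX lay above 0, where 54.0% of all features did. Turned, 6 of 11, 5 of 10 and 6 of 12 lay above 0, where 53.4% of all features did. The gene means of BCL2, BCL2L1 and BAX average 10 or more such features, while those of BAK1, BAD and BCL2A1 are the values of 1. Whether these features carry probes to the genes they are annotated to was not tested, and the limit holds for single features and gene means alike.

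**Figure D3:**
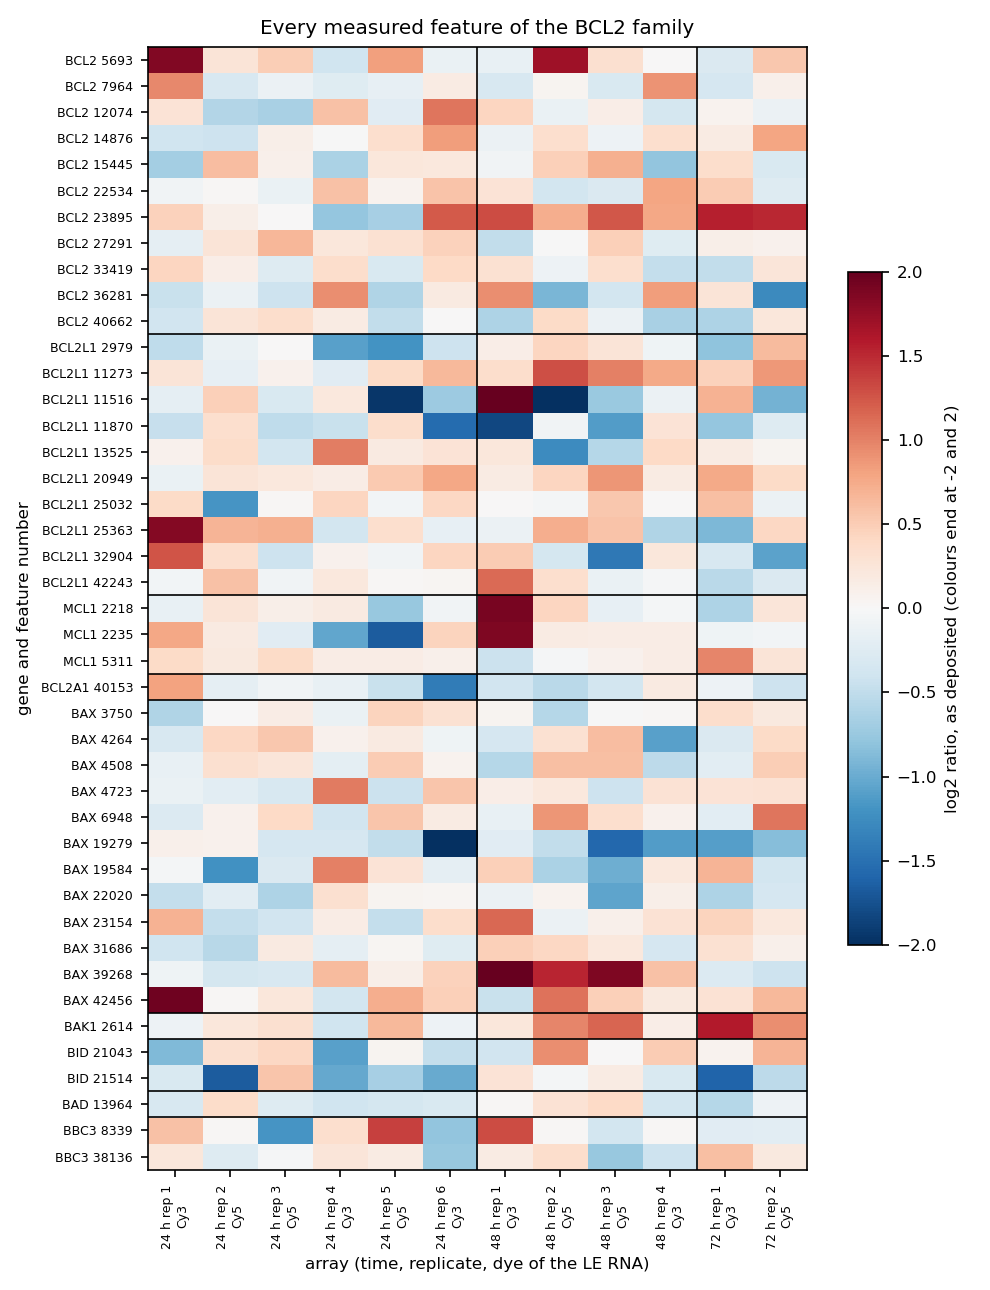
Log2 ratio as deposited (colour, ends at -2 and 2) of all 43 measured features of the family in rows, on the 12 arrays in columns, with the dye of the LE RNA under each. Rows of one gene rarely shared a colour, as at BAX, where features 22020 and 42456 are annotated to the same transcript. They were at -0.47 and 0.47 in the mean of 72 h.

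**Figure D4:**
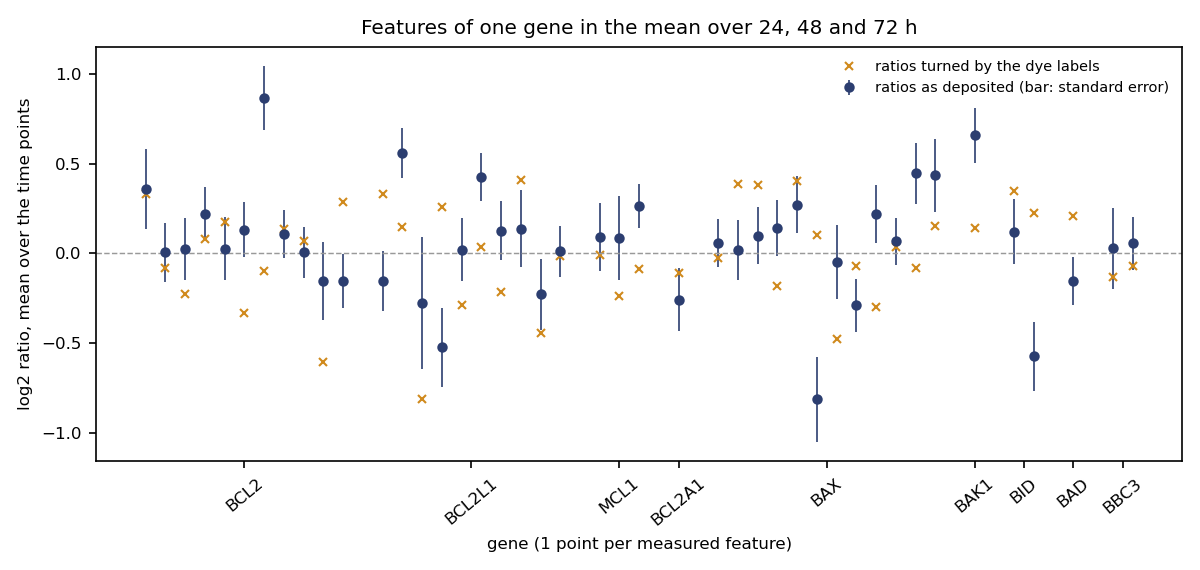
Mean log2 ratio over 24, 48 and 72 h (y axis) of each measured feature, grouped by gene (x axis). Circles are ratios as deposited with the standard error of the fit, and crosses are ratios turned by the dye labels. Feature 23895 of BCL2, at 0.87 as deposited and -0.10 turned, shows the widest gap.

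Agreement of sign over arrays was counted too. At 48 h 7 member features had one sign on all 4 arrays (14% of all features did), namely MCL1 2235, BAK1 2614, BCL2L1 11273 and 20949, BCL2 23895 and BAX 39268, all above 0, and BAX 19279 below 0. At 72 h 26 of 43 had one sign on both arrays, where 54.1% of all features did. No member had one sign on all 12 arrays, as 0.414% of all features did. Between time points, 4 member features had an unadjusted p under 0.05 for 48 against 24 h (4.82% of all features), 2 for 72 against 24 h (3.9%) and 1 for 72 against 48 h (3.9%), and none passed FDR ≤ 0.01.

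The profile of each gene over the 12 arrays was set against those of 8827 other genes. The closest by Pearson correlation was PPP1R3B for BCL2 (0.845), SPN for BCL2L1 (0.900), PARM1 for MCL1 (0.919), RPS10P7 for BCL2A1 (0.913), EXOC6 for BAX (0.894), METRNL for BAK1 (0.889), ZSWIM3 for BID (0.894), EVI5 for BAD (0.890) and SCLT1 for BBC3 (0.818). None of these is a member of the family. Each value is the highest of 8827 correlations over only 12 arrays, so selection alone brings high values, and none was tested. Within it, the closest pair was MCL1 and BCL2L1 (0.728), and the farthest BAK1 and BCL2L1 (-0.517).

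The rest of the mitochondrial pathway was read as gene means averaged over the time points, with 15.7% of all genes at an unadjusted p under 0.05. None of the genes in 5 lists passed FDR ≤ 0.01 or 0.05. Of the list genes named below, BMF, MOAP1, APAF1, PPIF, VDAC3 and FADD rest on 1 feature each. PMAIP1 and TNFSF10 average 10 features, CASP8 averages 11, and the others 2 or 3. Of 17 other BCL2 family genes 12 were measured, 8 above 0, and 1 had an unadjusted p under 0.05, namely PMAIP1 (NOXA, a BH3-only protein that binds MCL1) at -0.21 (adjusted p = 0.296, turned 0.02). BMF, which senses loss of attachment, was at 0.27, and MOAP1, a partner of BAX, at 0.24. The median of the list was 0.06, against 0.02 over all genes.

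Of 13 genes of mitochondrial release and the apoptosome 12 were measured, with 1 counted above 0 and 2 below. APAF1, the scaffold of the apoptosome, was at -0.02, 1.02 and 1.01 at 24, 48 and 72 h with a mean of 0.67 (adjusted p = 0.0858), which was 0.43 when turned. PPIF, the matrix cyclophilin of the permeability transition, was at -0.53 (adjusted p = 0.240) and SLC25A5, an ADP/ATP carrier, at -0.26. VDAC3, a channel of the outer membrane, passed an FDR of 0.05 with turned ratios alone (0.45, adjusted p = 0.0388), and was at 0.09 as deposited.

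Of 19 caspases and inhibitors 10 were measured, 7 above 0 as deposited and 2 when turned, and 1 had an unadjusted p under 0.05. This was CASP2, an initiator caspase, at 0.33 (adjusted p = 0.189, turned -0.07), and CASP8, the initiator that cleaves BID, was above 0 on 11 of 12 arrays at 0.17 (adjusted p = 0.421, turned -0.08). CASP4, an inflammatory caspase, was at 0.20. Of 13 death receptor genes 8 were measured and none was counted. The adaptor FADD was at -0.31 as deposited and -0.64 when turned (adjusted p = 0.0508), the receptor TNFRSF10B at 0.17 and its ligand TNFSF10 at 0.12.

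Of 27 genes that act on the family from upstream 22 were measured, 11 on each side of 0, and 5 had an unadjusted p under 0.05, 2 above and 3 below 0. FOXO3, a transcription factor of BH3-only genes, was below 0 on 11 of 12 arrays at -0.33 (adjusted p = 0.148, turned -0.14), and MDM4, an inhibitor of p53, at -0.38 (adjusted p = 0.157, turned -0.04). YWHAB, a 14-3-3 protein, was above 0 on 11 of 12 arrays at 0.28 (adjusted p = 0.214, turned -0.07).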

How the data were processed

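RNA of LE-treated and control MiaPaCa-2 cells was compared on 12 arrays with 2 dyes. Per the methods, the authors scanned Agilent whole human genome arrays, read them with GenePix Pro, kept features that met quality criteria in Acuity, one of them being opposite change at dye swap, and normalized by lowess within and quantiles between arrays in limma (version not given). The deposited values are log2 ratios per feature, without intensities or flags. On the 2 arrays of 72 h, which are of opposite orientation, 54.1% of features with values had one sign. The filled features thus do not show the criterion of opposite change at dye swap, whichever way the ratios were turned. The paper's results also describe a comparison with the dye swap after the technical criteria, which kept fewer genes at each time. Whether the filled features are those from before that step was not tested. Features were named from the platform annotation, in which 13436 measured features carry 1 symbol, 32 several and 3666 none. Only features with 1 symbol were averaged, unweighted, into 8828 genes.

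A model with 1 term per time point was fitted over the 12 arrays in limma 3.58.1 (R 4.3.3) by lmFit and eBayes, with 9 residual degrees of freedom and prior degrees of 6.20 (features) and 4.69 (genes). The mean over the time points weights them equally, so each of the 2 arrays at 72 h weighs more than one at 24 h. P-values were adjusted by Benjamini-Hochberg over 17134 features or 8828 genes, at FDR ≤ 0.01. The text names every member, the 3 smallest p in each list and the gene with the closest profile. VDAC3 and the member features treated singly were picked after their values were seen. The members and lists were chosen with earlier results of these data known. Alternatives were turned ratios, a term for dye, a replicate block, each time point alone, other scalings, a robust variance, an FDR of 0.05, medians of features and each array left out. The number of arrays limits the precision. Probe sequences and raw intensities were not used here. Python 3.11.15, pandas 2.3.3 and matplotlib 3.10.9 served for tables and plots.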

Additional observations from a re-analysis of the deposited data

Results flagged for a closer look

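In 3 of the 36 groups of 4 or more arrays that were examined, a single array stood far from the others, where chance gives about 1 in 20 groups. The groups share arrays and features, and the count was not tested against that rate. At 24 h the highest value of BAD, 0.37, came from replicate 2, while the other 5 arrays lay between -0.40 and -0.25. Feature 19279 of BAX had its lowest value at 24 h, -2.72, on replicate 6, where the other arrays lay between -0.50 and 0.11. The gene mean of MCL1 had its highest value at 48 h, 1.12, on replicate 1, which also had the widest spread over all features of the 12 arrays (SD 0.985), and the part of that spread in the value was not tested.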

How the results depend on the processing

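The count of calls among members at FDR ≤ 0.01 was 0 at each time point, in the mean and in the differences, for features and gene means, under every alternative fit. An FDR of 0.05 gave 2 features and 1 gene mean in the mean over the time points. That level was combined with the other fits after seeing the data. BAK1 lost it over features with arrays centred (0.0525) or scaled (0.0580), and over genes for 8 of 12 arrays left out. Over features, BAK1 kept the level when quantile-normalized (0.0445) or with a robust variance (0.0488), and over genes when centred (0.0429) or scaled (0.0476). BCL2 feature 23895 kept it centred (0.0330), scaled (0.0354), quantile-normalized (0.0297) and with a robust variance (0.0305). The mean of BAK1 ran from 0.55 to 0.77 and that of BCL2 feature 23895 from 0.79 to 0.92 with each array left out. Signs were less firm, and the cause was not tested except where the setting changes signs itself. Turned by the dye labels, 27 of 45 single results changed sign. They became for BAD 0.13 (24 h), 0.23 (72 h) and 0.21 (mean), -0.33 at 72 h for BAK1, -0.031 at 24 h for BAX, 0.02, -0.23, -0.10 and -0.10 for BBC3 at the 3 times and in the mean, -0.12 at 24 h and -0.024 in the mean for BCL2, and 0.0045 at 24 h for BCL2A1. BCL2L1 became -0.045, -0.15, 0.016 and -0.060, BID 0.32 (24 h), 0.42 (72 h) and 0.29 (mean), and MCL1 -0.25 at 48 h and -0.11 in the mean. Feature means became 0.10 (BAX 19279), -0.080 (BAX 39268), -0.10 (BCL2 23895), 0.26 (BCL2L1 11870), 0.23 (BID 21514) and -0.089 (MCL1 5311). Under other scalings and medians, means near 0 changed sign. BAX at 24 h was -0.026 centred, -0.019 quantile-normalized, -0.011 scaled and -0.011 by the median of features, and MCL1 at 24 h was 0.0011 quantile-normalized, 0.021 scaled and 0.033 by the median. BBC3 was -0.058 quantile-normalized and -0.049 scaled at 48 h, and -0.011 and -0.0056 in the mean, and BCL2L1 was -0.018 centred in the mean.

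With the replicate block (correlation 0.187) the counts at FDR ≤ 0.01 stayed at 0, those at 0.05 became 0, and BCL2L1 in the mean became -0.0053. Same-numbered arrays correlated at 0.06 to 0.49 in their deviations (8 pairs, 5 over 0.1), 4 of 10 arrays were closest to their own number, and arrays of one number also share the dye orientation, so beyond that they were taken to share only a number. With each array left out, gene means that crossed 0 ran at 24 h from -0.015 to 0.196 (BAK1), -0.027 to 0.035 (BAX), -0.159 to 0.149 (BBC3), -0.016 to 0.063 (BCL2L1) and -0.107 to 0.112 (MCL1), at 48 h from -0.017 to 0.235 (BAD), -0.191 to 0.242 (BBC3) and -0.034 to 0.108 (BCL2L1), at 72 h from -0.030 to 0.121 (BAX), -0.0098 to 0.187 (BBC3) and -0.762 to 0.074 (BID), and in the mean from -0.036 to 0.108 (BBC3) and -0.018 to 0.029 (BCL2L1). Leaving out an array of 72 h leaves 1, which is taken to vary like the others. Signal over background could not be assessed from ratios.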
